A study of Mus musculus with 49 samples.

Results

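The subject is the first hour after a toxic dose of acetaminophen (APAP, paracetamol) in mouse liver. The arrays were chosen by title, 5 labelled 1 h after APAP and 5 labelled control, which makes 10 of the 49 arrays of the series. All mice were male C57BL6/N, with no genetic change in the labels, and every array held liver RNA. The 1 h mice had been starved overnight, then received a single intraperitoneal injection of 300 mg/kg APAP in phosphate-buffered saline, and had free access to food from then on. The control arrays carry the treatment label none, and neither the labels nor the design text say whether these mice were starved, injected or killed at the same time of day. The drug, the fast, the injection and the time of day can therefore not be told apart in any difference between 1 h and control. Genes were those with a value on all 49 arrays, which holds for 8137 of 45101 probe sets. Age is not given. Whether each array is a separate mouse is not stated, and the p-values therefore measure the spread between arrays, which may in part be technical.

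APAP at a toxic dose is oxidised in hepatocytes around the central vein by cytochromes P450, chiefly Cyp2e1, to a reactive quinone imine that binds glutathione and then protein. Within the first hour the metabolite forms, glutathione is consumed and the stress kinase JNK, which phosphorylates Jun, is known to become active, while cell death is seen later. Transcripts that can move within an hour are those of immediate early genes, whose promoters need no newly made protein, those of hormone-responsive liver genes, and those with short-lived mRNA, many of which encode transcription factors.

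Of 5976 genes with a value on all arrays, 38 (0.636%) passed limma's test after Benjamini-Hochberg adjustment (called below, adjusted p under 0.05). Of these, 20 were higher at 1 h (0.335% of the genes) and 18 lower (0.301%), and 374 genes had an unadjusted p under 0.05. Values are log2 signals, so a difference of 1 is 2-fold, and differences are given as 1 h minus control ± the standard error (SE) of the fit. The median difference over all 5976 genes was 0.0026. For 34 of the 38 called genes, 18 higher and 16 lower, the 5 arrays of 1 h did not overlap the 5 of control. Such separation was found for 90 of the 5976 genes (1.51%). Arrays below are listed in the order of their replicate numbers. Whole-array means lay between 6.03 and 6.20. The values of control replicate 3 and 1 h replicate 3 had a narrower spread (SD 2.25 and 2.26) than the other 8 arrays (2.40 to 2.45), and these arrays were the lowest of their group for 12 (control) and 12 (1 h) of the 20 risen genes and for 11 and 10 of the 18 fallen genes. The part of this narrow range in single results was not tested beyond leaving these arrays out, which gave 34 called genes without both and 79 without control replicate 3 alone.

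**Figure D1:**
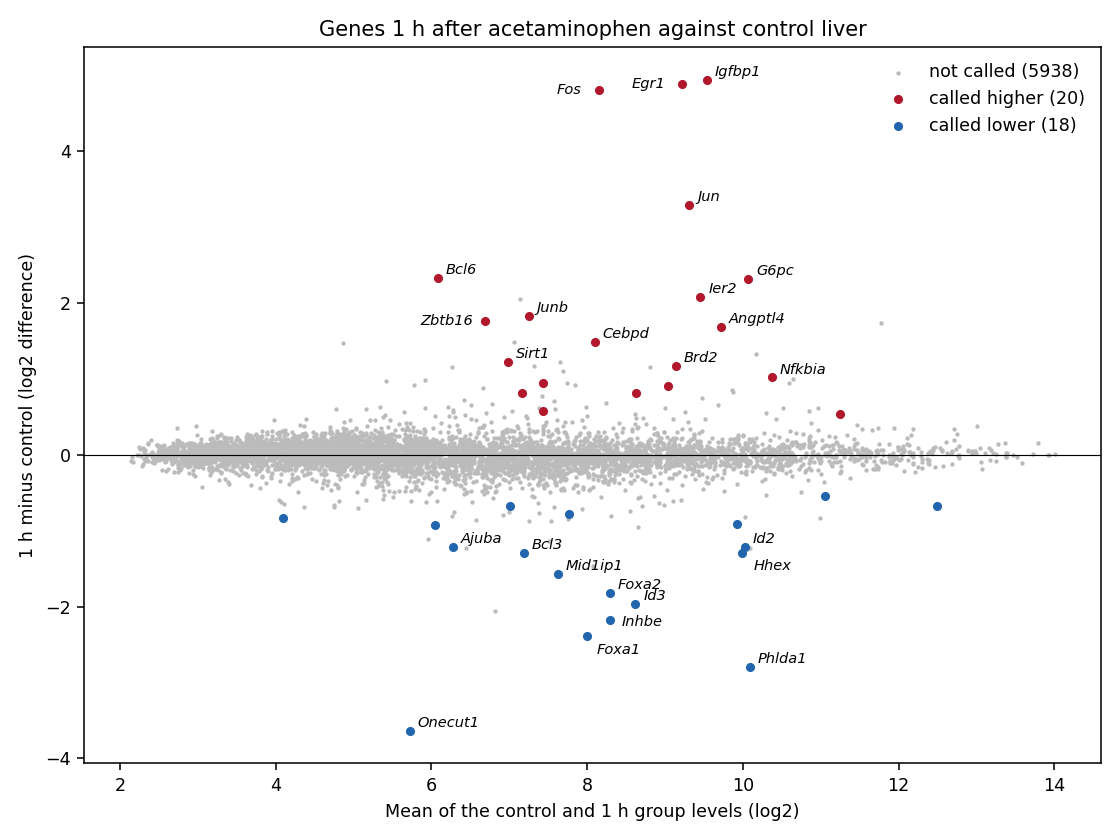
Difference between the 1 h and control groups (log2, y axis) against the mean of both group levels (log2, x axis) for 5976 genes, with called genes in colour and those that differed by at least 1 named. The 20 called rises reach 4.94 (Igfbp1) and the 18 called falls reach −3.64 (Onecut1), while most genes lie near 0.

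Immediate early transcription factors of the AP-1 and Egr families were among the largest rises. Of 22 measured genes of the immediate early list, 5 rose (Egr1, Fos, Jun, Ier2 and Junb), 0 fell and 17 did not pass the test. Over all 5976 genes 0.335% were called higher. Like all 39 lists, this one was chosen with earlier results of these data known, so its count and median are description only. The list median was 0.10, against 0.0026 for all genes. Egr1, a zinc finger transcription factor induced through MAP kinases, read 7.53, 7.24, 5.97, 6.74 and 6.38 on the control arrays and 11.59, 11.73, 11.08, 12.00 and 11.88 on the 1 h arrays. The lowest 1 h array stood 3.55 above the highest control array, and the difference was 4.88 ± 0.56 (SE, adjusted p = 6.06e-08), or 29.5-fold. Fos, the inducible partner in AP-1 dimers, read 6.12, 6.27, 4.81, 5.57 and 6.00 on the control arrays and 9.79, 10.50, 10.66, 11.29 and 10.59 on the 1 h arrays. The groups lay far apart, with a difference of 4.81 ± 0.58 (SE, adjusted p = 1.71e-07). Jun, the AP-1 subunit that JNK phosphorylates, read 8.10, 7.06, 7.24, 7.80 and 8.10 on the control arrays and 10.85, 10.93, 10.87, 11.34 and 10.78 on the 1 h arrays. The 1 h arrays lay within 0.56 of each other, and the difference was 3.30 ± 0.36 (SE, adjusted p = 2.1e-08), or 9.82-fold.

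Junb, an AP-1 subunit that can restrain Jun, read 6.64, 6.47, 5.44, 6.43 and 6.70 on the control arrays and 7.93, 8.42, 7.32, 8.90 and 8.29 on the 1 h arrays. Its groups were apart but 1 h replicate 3 was only 0.62 above the highest control array, and the difference was 1.84 ± 0.43 (SE, adjusted p = 0.0209). Ier2, a small nuclear immediate early protein, read 8.72, 8.09, 7.52, 8.79 and 8.92 on the control arrays and 10.33, 10.61, 10.01, 10.95 and 10.58 on the 1 h arrays. All 1 h arrays were higher, with a mean difference of 2.09 ± 0.30 (SE, adjusted p = 1.55e-05). Junb missed the threshold without both narrow arrays, without control replicate 3, or without 1 h replicate 2, 4 or 5 (1.61 to 2.05, highest adjusted p = 0.0948 over all alternatives). Among members that did not pass, Btg2, an antiproliferative gene with a short-lived mRNA, read 5.96, 5.68, 6.27, 6.47 and 6.15 on the control arrays and 8.18, 8.09, 7.49, 8.75 and 8.28 on the 1 h arrays. These arrays did not overlap, and the difference was 2.05 ± 0.61 (SE, adjusted p = 0.159) with the spread shared by all groups. In a fit of the 10 arrays alone its adjusted p was 0.000287. Maff, a small Maf factor, differed by 0.92 ± 0.33 (SE, adjusted p = 0.404) with arrays that did not overlap. Nr4a1, an orphan nuclear receptor of the same early class, differed by 1.23 ± 0.48 (SE, adjusted p = 0.515) with overlapping arrays.

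Among genes of feedback on such induction, Nab2, a corepressor that binds Egr proteins, fell by 0.92 on the log2 scale, with levels of 6.51 ± 0.76 in control and 5.59 ± 0.41 at 1 h (SD, n = 5 each) and an adjusted p of 0.0404. Its arrays overlapped, with control replicate 3 at 5.29, below 4 of the 5 arrays of 1 h. The call was lost when only the 10 arrays entered the fit and without any 1 of control replicates 1, 2, 4 and 5 or 1 h replicates 1 to 4 (−1.23 to −0.73, highest adjusted p = 0.685). Of 12 MAP kinase phosphatases and feedback inhibitors measured, 0 were called in either direction, where the background of 0.636% gives less than 1. Errfi1, an inhibitor of the EGF receptor, came closest, at 12.64, 12.59, 12.65, 12.68 and 12.52 on the control arrays and 12.89, 12.99, 12.81, 12.96 and 12.82 on the 1 h arrays. These arrays did not overlap although the difference was only 0.28 ± 0.072 (SE, adjusted p = 0.0562), and it passed without control replicate 3 (adjusted p = 0.0449). Limma's trend and robust options, array weights and quantile normalization gave adjusted p = 0.0205, 0.00201 and 0.0268. Leaving out dim genes (means under 5 in both groups) or all 3 narrow arrays of the series gave 0.0441 each. Errfi1 did not pass in the other alternatives.

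The promoter of Fos is shown because its start-proximal elements are well-known targets of cAMP and growth factor signals. The sequence gives 250 bases upstream of the RefSeq start (build GRCm38.p6, chr12:85473640-85473889, plus strand), and capitals mark TGACG, the short site of the cAMP response element. The matches begin 129 and 66 bases before the start.
Fos: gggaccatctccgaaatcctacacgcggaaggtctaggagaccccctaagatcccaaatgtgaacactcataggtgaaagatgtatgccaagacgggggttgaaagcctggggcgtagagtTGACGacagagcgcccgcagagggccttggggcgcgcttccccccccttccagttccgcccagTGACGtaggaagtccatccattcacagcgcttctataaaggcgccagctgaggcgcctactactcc
The short site TGACG, on either strand, was found in the 300-base windows (250 bases before to 50 after the start) of 8 of the 15 risen genes that have a window (53.3%), of 4 of 16 fallen genes (25%), and of 31.1% of the measured genes and 23.0% of all 27025 genes with a window. A full element TGACGTCA was in none of the 31 windows (3.07% of measured genes). An AP-1 site TGANTCA was in 0 of 15 and 1 of 16 (8.44% of measured genes). A CArG box was in none (2.04% of measured genes). Egr1 and Ier2 had no window, and bases further upstream were not searched. These matches describe letters in short windows and were not tested.

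**Figure D2:**
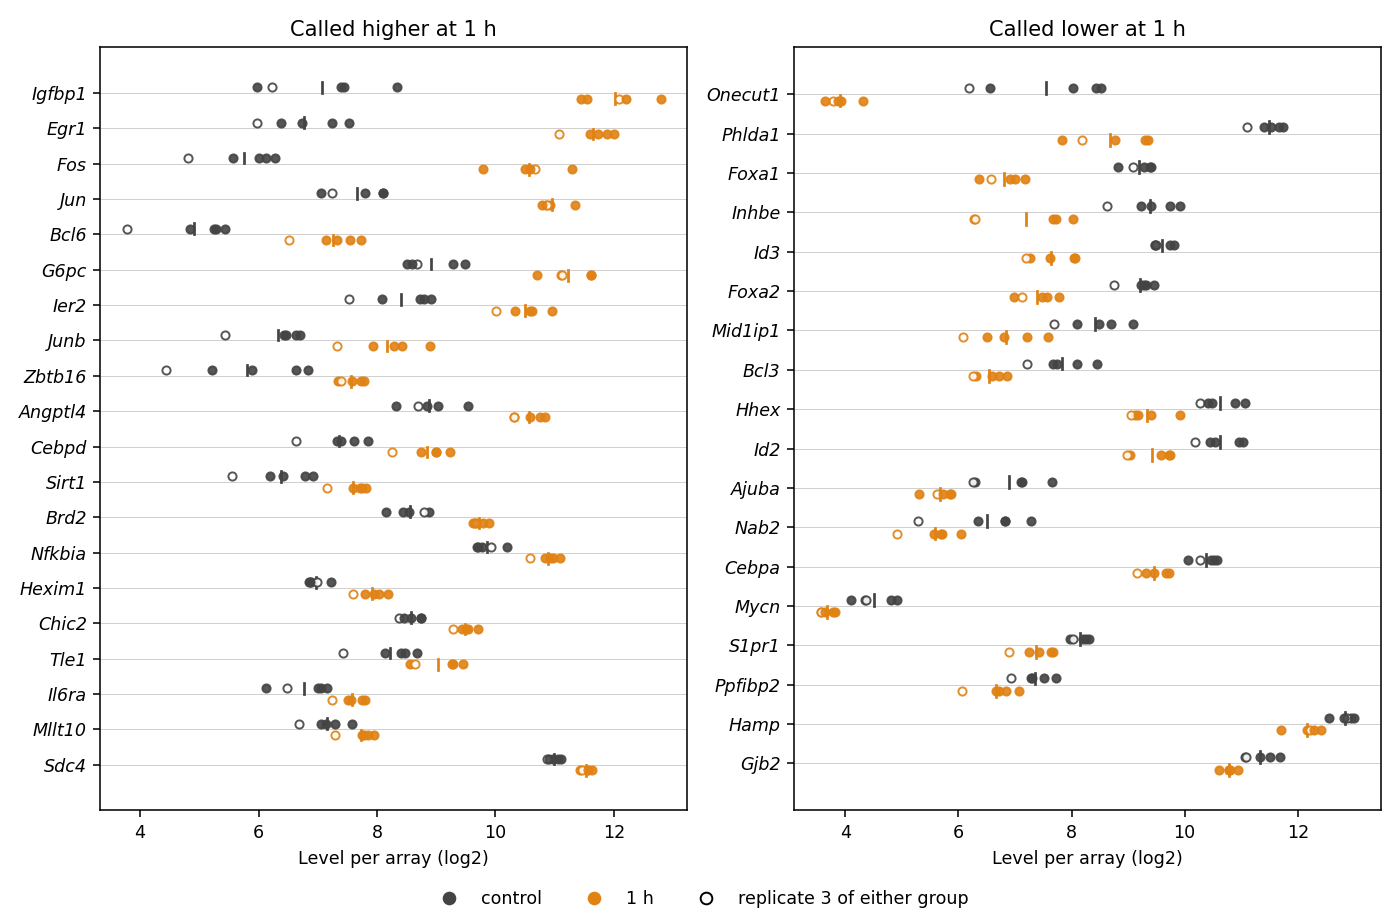
Log2 level on each array (x axis) for the 20 genes called higher and the 18 called lower (rows), with control in grey and 1 h in orange, vertical bars at group means and open circles for replicate 3 of either group. The groups are separate for 34 of the 38 genes, the exceptions being Tle1, Mllt10, Ppfibp2 and Nab2, and replicate 3 is often the lowest array.

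Igfbp1 and G6pc, hepatocyte genes that insulin represses through FOXO1, rose. Igfbp1, whose secreted product binds insulin-like growth factors, read 8.33, 7.44, 6.23, 5.97 and 7.39 on the control arrays and 11.45, 11.54, 12.09, 12.21 and 12.79 on the 1 h arrays. The lowest 1 h array was 3.12 above the highest control array, and the difference of 4.94 ± 0.49 (SE, adjusted p = 3.73e-09), or 30.8-fold, was the largest rise of the 5976 genes. G6pc, the enzyme that releases free glucose from glucose 6-phosphate, read 9.29, 9.48, 8.68, 8.59 and 8.50 on the control arrays and 10.70, 11.11, 11.12, 11.61 and 11.61 on the 1 h arrays. All 1 h arrays were higher, with a mean difference of 2.32 ± 0.42 (SE, adjusted p = 0.000581), or 5-fold.

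These were the 2 calls among 10 measured insulin and FOXO1 responsive genes, with 0 lower, 9 positive differences and a list median of 0.64 against 0.0026 for all genes. Over all genes 0.335% were called higher, and this list too was chosen with earlier results known. Ccng2, a cyclin that restrains division, differed by 1.11 ± 0.28 (SE, adjusted p = 0.0532), just outside the threshold, and passed without control replicate 1 or 2 or 1 h replicate 3 (adjusted p = 0.0332, 0.0307 and 0.0154). Median centring, quantile normalization and ribosomal protein centring gave adjusted p = 0.0205, 0.00917 and 0.0177. Array weights and leaving out dim genes gave 0.00117 and 0.0372. Apart from the replicate block given below, Ccng2 passed in no other alternative. Txnip, an inhibitor of glucose uptake, differed by 0.94 ± 0.28 (SE, adjusted p = 0.159). Of 8 gluconeogenesis genes G6pc alone was called. Pck1, the cytosolic phosphoenolpyruvate carboxykinase, read 12.60, 12.58, 12.49, 12.65 and 12.39 on the control arrays and 13.02, 12.82, 12.83, 12.94 and 12.85 on the 1 h arrays. Its arrays did not overlap, but the difference of 0.35 ± 0.22 (SE, adjusted p = 0.978) was small, at a level near the top of the range. Of 13 genes of the insulin-like growth factor axis Igfbp1 was the 1 call. Socs2, a growth hormone-induced inhibitor of cytokine signalling, read 7.21, 7.87, 7.24, 8.36 and 8.56 on the control arrays and 7.13, 5.65, 4.84, 5.48 and 5.84 on the 1 h arrays. The groups were separate by 0.08 only, and the difference was −2.06 ± 0.61 (SE, adjusted p = 0.154), with 0.0296 when only the 10 arrays entered the fit. Igfals, which holds insulin-like growth factors in the serum complex, differed by −0.67 ± 0.23 (SE, adjusted p = 0.358) with separate arrays.

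The promoters of Igfbp1 and G6pc are shown because each holds a core of the insulin response element through which FOXO1 acts. Each sequence is the 250 bases upstream of the RefSeq start in GRCm38.p6, both on the plus strand (chr11:7197537-7197786 and chr11:101367466-101367715), with capitals for TGTTTTG or its complement on the other strand, CAAAACA.
Igfbp1: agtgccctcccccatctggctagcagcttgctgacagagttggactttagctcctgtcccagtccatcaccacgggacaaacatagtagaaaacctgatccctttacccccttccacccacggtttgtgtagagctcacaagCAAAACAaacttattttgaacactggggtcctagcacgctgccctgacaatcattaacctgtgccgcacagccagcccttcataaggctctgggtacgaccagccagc
G6pc: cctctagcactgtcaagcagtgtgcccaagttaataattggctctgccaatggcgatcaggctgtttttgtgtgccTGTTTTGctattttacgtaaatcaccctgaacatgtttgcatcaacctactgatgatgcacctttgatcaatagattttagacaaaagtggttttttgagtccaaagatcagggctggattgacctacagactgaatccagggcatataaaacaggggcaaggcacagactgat
The Igfbp1 match lies 108 to 102 bases before the start and the G6pc match 174 to 168 bases before it. TGTTTTG on either strand was found in 3 of 15 windows of risen genes (20.0%) and 1 of 16 of fallen genes (6.25%), against 5.71% of measured genes, and the related FOXO core TGTTTAC in 2 of 15 (13.3%) and 3 of 16 (18.8%), against 3.40%. With so few windows these shares are a description of the letters only.

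Among the 39 lists, which were chosen with earlier results of these data known, glucocorticoid-responsive genes had the highest median. Of 17 measured, 4 rose (Zbtb16, Angptl4, Cebpd and Nfkbia), 0 fell, 15 had positive differences and the median was 0.86, against 0.0026 for all genes. Over all genes 0.335% were called higher. Angptl4, a secreted inhibitor of lipoprotein lipase that fasting also induces, read 9.03, 9.53, 8.69, 8.84 and 8.32 on the control arrays and 10.32, 10.59, 10.31, 10.83 and 10.76 on the 1 h arrays. The groups were 0.78 apart at their nearest, with a difference of 1.68 ± 0.26 (SE, adjusted p = 4.57e-05). Cebpd, a C/EBP factor of the acute phase response, read 7.32, 7.62, 6.64, 7.39 and 7.84 on the control arrays and 8.74, 8.99, 8.26, 8.99 and 9.24 on the 1 h arrays. All 1 h arrays were higher, with a mean difference of 1.48 ± 0.29 (SE, adjusted p = 0.00157). Zbtb16, the zinc finger and BTB repressor PLZF, read 5.89, 6.84, 4.44, 5.22 and 6.63 on the control arrays and 7.35, 7.58, 7.39, 7.73 and 7.78 on the 1 h arrays. The control arrays were spread over 2.40 and the 1 h arrays over 0.43, and the difference was 1.76 ± 0.36 (SE, adjusted p = 0.00392). It missed the threshold without both narrow arrays and when only the 10 arrays entered the fit (highest adjusted p = 0.0682). Its value rests on a probe set whose name marks possible cross-hybridisation.

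Nfkbia, the inhibitor IκBα that holds NF-κB in the cytoplasm, read 9.69, 10.19, 9.92, 9.77 and 9.71 on the control arrays and 11.09, 10.97, 10.58, 10.92 and 10.84 on the 1 h arrays. Its groups were separate, with a difference of 1.02 ± 0.22 (SE, adjusted p = 0.0083), and a second probe set gave 1.05. It was the 1 call among 16 genes of NF-κB feedback and TNF signalling, where 0 fell and the list median was −0.04. Nfkbiz, an inducible nuclear IκB, differed by 1.49 ± 0.54 (SE, adjusted p = 0.404) with overlapping arrays. Of members of related lists with separate arrays that did not pass, Cebpb, another C/EBP factor, differed by 0.58 ± 0.17 (SE, adjusted p = 0.154), and Tsc22d3, the glucocorticoid-induced leucine zipper gene, by 0.62 ± 0.26 (SE, adjusted p = 0.614). Mt1, a metal-binding protein that zinc and glucocorticoids induce, differed by 1.74 ± 0.60 (SE, adjusted p = 0.335), with control arrays spread widely (SD 1.55 against 0.28 at 1 h).

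Genes of transcriptional repression and elongation were also among the rises. Of 17 genes in the list of chromatin and transcription repressors, 4 rose (Bcl6, Zbtb16, Hexim1 and Tle1), 0 fell and the median was 0.32. Over all genes 0.335% were called higher. Like all 39 lists, this list was chosen with earlier results of these data known, so its count and median are description only. Bcl6, a BTB repressor that opposes growth hormone signalling in male liver, read 5.28, 5.24, 3.78, 4.85 and 5.43 on the control arrays and 7.55, 7.73, 6.52, 7.14 and 7.32 on the 1 h arrays. The groups were 1.09 apart at their nearest, and the difference was 2.33 ± 0.55 (SE, adjusted p = 0.0234), or 5.04-fold. Its call was lost without control replicate 3 or 4, without 1 h replicate 1, 2, 4 or 5, and when the narrow arrays were left out (2.05 to 2.52, highest adjusted p = 0.0828). Hexim1, which inhibits the elongation kinase P-TEFb, read 6.88, 7.22, 6.99, 6.86 and 6.87 on the control arrays and 7.80, 7.95, 7.59, 8.19 and 8.04 on the 1 h arrays. All 1 h arrays were higher, with a mean difference of 0.95 ± 0.17 (SE, adjusted p = 0.000581). Brd2, a bromodomain protein that binds acetylated histones, read 8.87, 8.15, 8.79, 8.54 and 8.44 on the control arrays and 9.62, 9.79, 9.66, 9.90 and 9.68 on the 1 h arrays. Again all 1 h arrays lay above the control arrays, and the difference was 1.17 ± 0.22 (SE, adjusted p = 0.00141).

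Sirt1, an NAD-dependent deacetylase that acts on histones and on FOXO1, read 6.79, 6.92, 5.55, 6.19 and 6.42 on the control arrays and 7.71, 7.75, 7.15, 7.81 and 7.59 on the 1 h arrays. The groups were apart by 0.23 at their nearest, with a difference of 1.23 ± 0.23 (SE, adjusted p = 0.00099). Tle1, a Groucho-type corepressor, had levels of 8.22 ± 0.48 in control and 9.04 ± 0.41 at 1 h (SD, n = 5 each) and differed by 0.82 ± 0.19 (SE, adjusted p = 0.0221). Mllt10, a cofactor of the histone methyltransferase Dot1l, had levels of 7.15 ± 0.32 in control and 7.72 ± 0.25 at 1 h (SD, n = 5 each) and differed by 0.57 ± 0.14 (SE, adjusted p = 0.0248), and its second probe set by 0.46 without a call. Both genes had overlapping arrays, and both lost their call when only the 10 arrays entered the fit and without control replicate 1 or 3 or 1 h replicate 2, 4 or 5, Mllt10 also as the mean of its probe sets and without control replicate 4 or 1 h replicate 1 (Tle1 0.62 to 0.94, highest adjusted p = 0.406, Mllt10 0.46 to 0.68, highest adjusted p = 0.406).

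The other called rises were Il6ra, Sdc4 and Chic2. Chic2 read 8.74, 8.75, 8.38, 8.46 and 8.57 on the control arrays and 9.54, 9.43, 9.28, 9.50 and 9.71 on the 1 h arrays. The groups were separate and the difference was 0.91 ± 0.14 (SE, adjusted p = 4.57e-05). Il6ra, the ligand-binding chain of the interleukin 6 receptor, read 7.05, 6.12, 6.48, 7.15 and 7.01 on the control arrays and 7.75, 7.51, 7.24, 7.79 and 7.56 on the 1 h arrays. The gap between the groups was 0.09, with a difference of 0.81 ± 0.18 (SE, adjusted p = 0.0165). Sdc4, the cell surface proteoglycan syndecan-4, read 11.11, 10.97, 10.87, 10.90 and 11.06 on the control arrays and 11.42, 11.54, 11.46, 11.56 and 11.63 on the 1 h arrays. Its difference was small, 0.54 ± 0.14 (SE, adjusted p = 0.0404), against SDs of 0.10 and 0.08. Il6ra was not called when only the 10 arrays entered the fit, nor without control replicate 2 or 1 h replicate 1 or 4 (0.65 to 0.91, highest adjusted p = 0.15). Sdc4 was not called with median centring, without the narrow arrays, or without any 1 of the arrays other than control replicate 1 (0.51 to 0.59, highest adjusted p = 0.124).

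Transcription factors that define the hepatocyte were among the largest falls. Of 17 measured, 4 fell (Onecut1, Foxa1, Foxa2 and Cebpa), Cebpd rose and 12 did not pass, with a list median of −0.07. Over all genes 0.301% were called lower and 0.335% higher, and this list too was chosen with earlier results known. Onecut1 (HNF6), a homeodomain factor of liver and pancreas, read 6.56, 8.02, 6.19, 8.44 and 8.52 on the control arrays and 3.93, 4.32, 3.78, 3.87 and 3.64 on the 1 h arrays. The 1 h arrays reached 4.32 at most, near the low end of the array's range, so the fall of 3.64 on the log2 scale (12.5-fold, SE 0.54, adjusted p = 2.62e-05) can be understated. Foxa1, a pioneer factor that opens chromatin at liver enhancers, read 8.82, 9.40, 9.09, 9.38 and 9.28 on the control arrays and 6.36, 6.92, 6.58, 7.00 and 7.17 on the 1 h arrays. The groups were 1.65 apart at their nearest, and the difference was −2.39 ± 0.24 (SE, adjusted p = 4.97e-09), or 5.24-fold lower. Foxa2, its close relative, read 9.31, 9.46, 8.75, 9.28 and 9.23 on the control arrays and 6.99, 7.77, 7.13, 7.48 and 7.56 on the 1 h arrays. Here the gap was 0.98, with a difference of −1.82 ± 0.28 (SE, adjusted p = 3.64e-05).

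Cebpa, the C/EBP factor of mature hepatocytes, read 10.52, 10.05, 10.27, 10.47 and 10.57 on the control arrays and 9.67, 9.73, 9.15, 9.46 and 9.32 on the 1 h arrays. Its fall was smaller, −0.91 ± 0.16 (SE, adjusted p = 0.000341), while Cebpd of the same family rose. Hhex, a homeobox factor needed for liver and bile duct development, read 10.49, 11.06, 10.27, 10.89 and 10.42 on the control arrays and 9.12, 9.92, 9.05, 9.18 and 9.41 on the 1 h arrays. Its groups were apart, but the difference of −1.29 ± 0.33 (SE, adjusted p = 0.0498) lay just inside the threshold and was lost under 14 of 23 alternatives, among them leaving out any of control replicates 1, 2, 4 and 5 or 1 h replicates 1, 3, 4 and 5 (−1.44 to −1.18, highest adjusted p = 0.164). In these whole-liver samples fewer cells of a type and less RNA per cell cannot be told apart.

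The promoter of Onecut1 is shown as that of the largest fall. It is the 250 bases upstream of the RefSeq start (chr9:74861671-74861920, GRCm38.p6, plus strand), with capitals for an E-box CACGTG, 232 to 227 bases before the start, and for CGTCA, the short site of the cAMP response element read from the other strand, 139 to 135 bases before it.
Onecut1: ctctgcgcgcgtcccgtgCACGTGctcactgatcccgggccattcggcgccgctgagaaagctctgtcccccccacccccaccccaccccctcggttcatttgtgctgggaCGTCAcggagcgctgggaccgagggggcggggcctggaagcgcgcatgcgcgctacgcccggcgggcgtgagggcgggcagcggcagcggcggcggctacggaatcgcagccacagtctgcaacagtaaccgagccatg
The E-box was found in 3 of 15 risen (20.0%) and 1 of 16 fallen genes (6.25%), against 10.6% of the measured genes. The GC box GGGCGG was found in 11 of 15 (73.3%) and 12 of 16 (75.0%), against 59.3%.

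Among genes tied to bone morphogenetic protein (BMP) and TGF beta signals the calls were falls. Of 28 genes of the Id, BMP and TGF beta list, 4 fell (Id3, Id2, Inhbe and Hamp), 0 rose and 24 did not pass, and the list median was −0.09. Over all genes 0.301% were called lower, and this list too was chosen with earlier results known. Id3, which blocks basic helix-loop-helix factors, read 9.81, 9.48, 9.49, 9.74 and 9.48 on the control arrays and 7.26, 7.62, 7.20, 8.05 and 8.06 on the 1 h arrays. The control arrays lay within 0.33 of each other, and the groups were 1.42 apart at their nearest, with a difference of −1.96 ± 0.32 (SE, adjusted p = 0.000126). Id2, of the same family, read 10.96, 10.54, 10.18, 10.45 and 11.03 on the control arrays and 9.04, 9.59, 8.98, 9.72 and 9.74 on the 1 h arrays. Its groups were separate, with a difference of −1.22 ± 0.21 (SE, adjusted p = 0.000255). Id3 also stands in the list of Kupffer cell markers, of which it was the 1 called gene of 6. The other 5 did not pass: C1qa, C1qb, Cd163, Clec1b and Slc40a1 had 1 h means of 8.59, 8.88, 7.89, 7.34 and 10.08 against 7.90, 8.39, 7.29, 7.19 and 10.42 in control.

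Hamp encodes hepcidin, the hormone that lowers iron export and is driven by BMP signals, and read 12.55, 12.94, 12.86, 12.81 and 13.00 on the control arrays and 11.70, 12.17, 12.22, 12.41 and 12.28 on the 1 h arrays. The groups were 0.14 apart, and the difference was −0.68 ± 0.17 (SE, adjusted p = 0.0404), with −0.74 from a second probe set whose name marks possible cross-hybridisation. This call was lost under 14 of 23 alternatives, such as each of the 3 other normalizations, array weights, and leaving out control replicate 2, 4 or 5 or 1 h replicate 1, 2, 3 or 5 (−0.75 to −0.56, highest adjusted p = 0.238). Inhbe, the hepatocyte subunit of activin E, read 9.74, 9.41, 8.63, 9.92 and 9.23 on the control arrays and 6.28, 8.02, 6.30, 7.73 and 7.67 on the 1 h arrays. The groups did not overlap, with 1 h replicates 1 and 3 far below the other 3, and the difference was −2.18 ± 0.52 (SE, adjusted p = 0.0261). It was not called without the narrow arrays, nor without control replicate 1, 2, 4 or 5 or 1 h replicate 1 or 3 (−2.39 to −1.95, highest adjusted p = 0.135).

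The other called falls had varied roles. Phlda1, a pleckstrin homology-like domain protein, read 11.40, 11.73, 11.10, 11.66 and 11.53 on the control arrays and 7.83, 9.30, 8.18, 8.77 and 9.35 on the 1 h arrays. The lowest control array lay 1.75 above the highest 1 h array, and the difference of −2.80 ± 0.41 (SE, adjusted p = 2.27e-05), or 6.97-fold lower, was the second largest fall. Mid1ip1, which promotes the activity of acetyl-CoA carboxylase in fatty acid synthesis, read 8.09, 8.49, 7.69, 8.70 and 9.08 on the control arrays and 6.80, 7.58, 6.08, 7.21 and 6.51 on the 1 h arrays. Its groups were 0.11 apart at their nearest, with a difference of −1.57 ± 0.30 (SE, adjusted p = 0.00152). Among 13 fatty acid synthesis genes 0 were called, where the background of 0.636% gives less than 1. Me1, the largest shift of these 13, differed by −0.61 ± 0.26 (SE, adjusted p = 0.634). Bcl3, a nuclear IκB family member, read 8.09, 8.45, 7.22, 7.68 and 7.74 on the control arrays and 6.32, 6.59, 6.25, 6.72 and 6.86 on the 1 h arrays. The groups were separate, with a difference of −1.29 ± 0.31 (SE, adjusted p = 0.0291). Ajuba, a LIM domain scaffold at cell junctions, read 6.29, 7.11, 6.26, 7.12 and 7.66 on the control arrays and 5.87, 5.85, 5.63, 5.30 and 5.73 on the 1 h arrays. Here too the arrays were separate, with a difference of −1.21 ± 0.29 (SE, adjusted p = 0.0291).

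S1pr1, the receptor of sphingosine 1-phosphate best known from endothelial cells, read 8.31, 7.98, 8.02, 8.25 and 8.20 on the control arrays and 7.68, 7.43, 6.89, 7.63 and 7.25 on the 1 h arrays. Its difference was −0.78 ± 0.15 (SE, adjusted p = 0.00141). Among 8 liver endothelial markers 0 were called and their median was 0.08. The background of 0.636% gives less than 1 call there, so this count says little. Gjb2, the gap junction protein connexin 26, read 11.06, 11.50, 11.08, 11.33 and 11.68 on the control arrays and 10.61, 10.95, 10.80, 10.78 and 10.79 on the 1 h arrays. The separation was small, with a difference of −0.55 ± 0.12 (SE, adjusted p = 0.0159). Mycn, a Myc family factor, read 4.35, 4.92, 4.37, 4.81 and 4.11 on the control arrays and 3.57, 3.79, 3.57, 3.64 and 3.82 on the 1 h arrays. All values lay under 5, near the low end of the array's range, and the difference was −0.84 ± 0.20 (SE, adjusted p = 0.0234). It was the 1 call among 21 Myc targets and ribosome biogenesis genes, of which Rrs1 came next at −0.74 ± 0.20 (SE, adjusted p = 0.0724), also with separate arrays. Ppfibp2, a liprin, had levels of 7.35 ± 0.30 in control and 6.67 ± 0.37 at 1 h (SD, n = 5 each) and differed by −0.68 ± 0.16 (SE, adjusted p = 0.0234), with overlapping arrays.

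Of these 9 falls, Phlda1, Mid1ip1 and S1pr1 kept their call in every alternative, and Nab2 is described above. Ajuba was not called without control replicate 2, 4 or 5 or 1 h replicate 1, 3, 4 or 5 (−1.39 to −1.02, highest adjusted p = 0.172). Bcl3 was not called without control replicate 1, 2, 4 or 5 or 1 h replicate 1, 2, 3 or 4 (−1.44 to −1.14, highest adjusted p = 0.154). Ppfibp2 was not called without control replicate 1, 2 or 4 or 1 h replicate 3, 4 or 5 (−0.78 to −0.53, highest adjusted p = 0.317). For Mycn the arrays in question were control replicates 2 and 4 and 1 h replicates 1, 3 and 4 (−0.94 to −0.73, highest adjusted p = 0.142), and for Gjb2 control replicates 2 and 5 and 1 h replicate 1 (−0.61 to −0.46, highest adjusted p = 0.159). Ajuba, Ppfibp2 and Gjb2 also lost their call when only the 10 arrays entered the fit, Gjb2 with ribosomal protein centring, and Bcl3 and Mycn without both narrow arrays. The number of falls therefore depended on single arrays: it was 9 without control replicate 2 and 56 without control replicate 3, against 18 with all arrays.

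**Figure D3:**
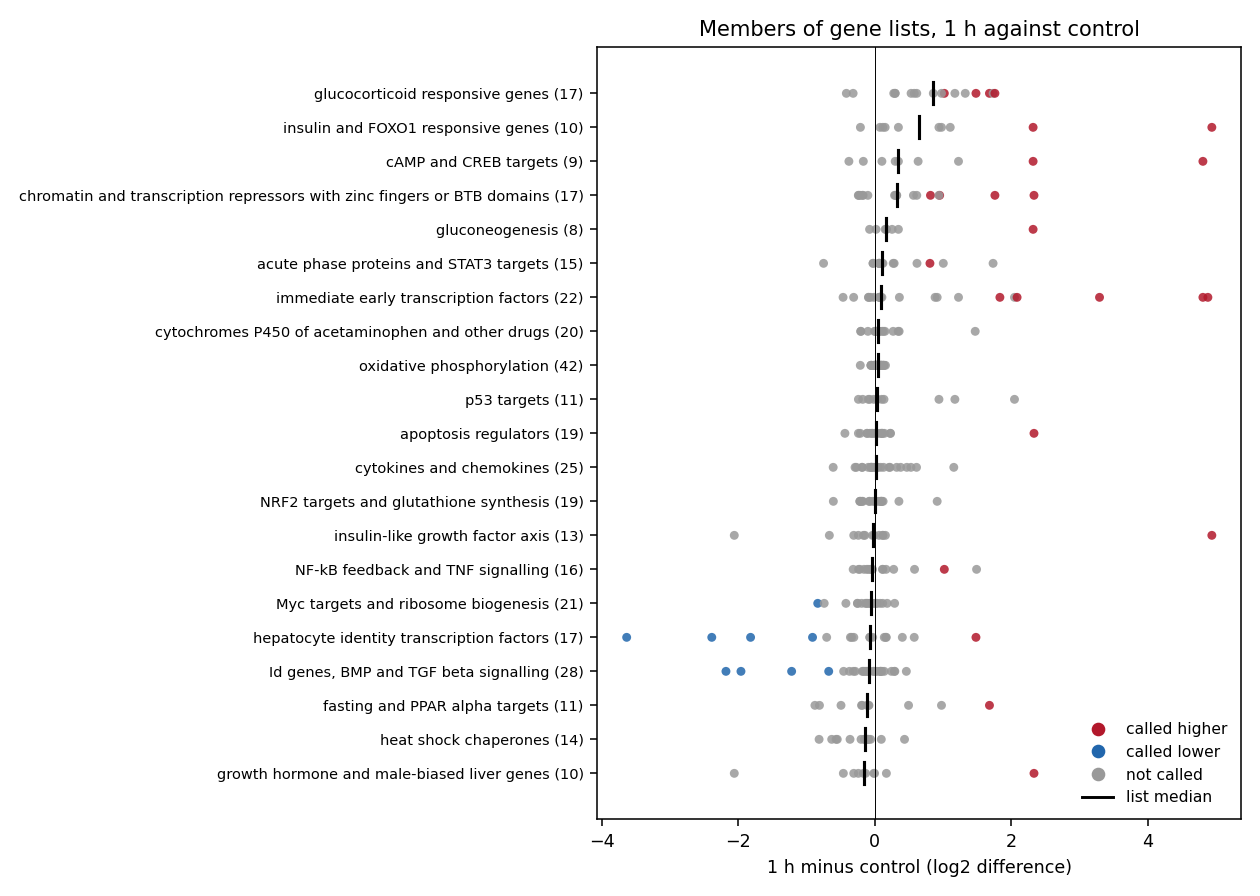
Difference of 1 h from control (log2, x axis) for the measured members of 21 gene lists (rows, number measured in brackets), with called members in colour and the list median as a black bar. The glucocorticoid list has the highest median (0.86), whereas the immediate early list has 5 far rises around a median of 0.10. The lists were chosen with earlier results of these data known.

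Of the 39 lists 24 had no called member. None was called among 19 NRF2 targets and glutathione synthesis genes (median 0.0011), 14 ATF4 targets (−0.05), 16 endoplasmic reticulum chaperones (−0.08), 14 heat shock chaperones (−0.15), 25 cytokines and chemokines (0.02) or 17 interferon-induced genes (0.0015). At the background of 0.636% less than 1 call would be found in lists of these sizes, so a count of 0 says little. Among chaperones, Hspb1 (HSP27) read 10.80, 10.42, 10.34, 10.39 and 10.24 on the control arrays and 8.75, 9.23, 10.19, 9.96 and 9.98 on the 1 h arrays. The groups did not overlap, at −0.82 ± 0.36 (SE, adjusted p = 0.646). Bag3, a cochaperone, differed by −0.63 ± 0.31 (SE, adjusted p = 0.78), again with separate arrays. Of 11 p53 targets 0 were called. Btg2, described above, had the largest difference of this list too, 2.05 ± 0.61 (SE, adjusted p = 0.159), and was the 1 member whose arrays did not overlap. It passed in the fit of the 10 arrays alone (adjusted p = 0.000287) and with array weights (adjusted p = 0.013). Trp53inp1 differed by 0.94 ± 0.27 (SE, adjusted p = 0.141) and passed with array weights (adjusted p = 0.0286). Cdkn1a, the cell cycle inhibitor p21, had a larger difference than Trp53inp1, 1.18 ± 0.40 (SE, adjusted p = 0.335).

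The genes that process APAP showed no call either. Of 20 cytochromes P450 and 18 conjugation enzymes and transporters measured, 0 were called in either direction, with medians of 0.05 and 0.09. Cyp2e1 had levels of 13.72 ± 0.10 in control and 13.73 ± 0.06 at 1 h (SD, n = 5 each), near the top of the array's range, where a change can be compressed. Cyp2b10, a target of the drug-sensing receptor CAR, had the largest difference of the list and differed by 1.47 ± 0.58 (SE, adjusted p = 0.515), with SDs above 1 in both groups. Cyp7a1, which starts the classic route from cholesterol to bile acids, differed by −1.47 ± 0.65 (SE, adjusted p = 0.663), and of 13 bile acid genes 0 were called. The same count of 0 held for 11 pericentral and 7 periportal hepatocyte genes, 42 oxidative phosphorylation subunits (median 0.04), 28 cytosolic ribosomal proteins (−0.03) and 23 genes of DNA replication and mitosis (0.14). At the background of 0.636% less than 1 call would be found in each of these lists, so these counts of 0 say little.

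Clock genes are given because the time of day of either group is unknown. Of 16 measured, 0 were called, where the background of 0.636% gives less than 1, and the median was 0.07. Per2, a repressor of the clock, read 5.96, 6.69, 6.05, 6.79 and 7.08 on the control arrays and 5.29, 5.92, 4.90, 5.62 and 5.28 on the 1 h arrays. The groups were apart by 0.04 only, and the difference was −1.11 ± 0.30 (SE, adjusted p = 0.0658), which passed without control replicate 1 or 3 or 1 h replicate 2 (adjusted p = 0.0424, 0.0336 and 0.0486). It also passed with array weights, with quantile normalization and without dim genes (adjusted p = 0.0293, 0.0362 and 0.0468). Bhlhe40, another clock repressor, differed by −0.95 ± 0.39 (SE, adjusted p = 0.578) with separate arrays, and Nfil3 by 0.78 ± 0.30 (SE, adjusted p = 0.515) with overlapping ones. The part of the time of day in the called genes was not tested.

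Cell type markers matched the label liver. The 4 measured hepatocyte markers, Apoa1, Apoa2, Apoc3 and F2, had group means between 12.95 and 14.01, with a median difference of 0.0063. Of 8 neutrophil, 6 monocyte and macrophage, 9 stellate cell and fibroblast, 3 bile duct, 10 lymphocyte and 3 erythroid and platelet markers, 0 were called. At the background of 0.636% less than 1 call would be found in each list, so these counts of 0 say little. Group means of the neutrophil markers lay between 4.51 and 5.60, near the low end of the range. Their summed linear signal was 241 to 319 on control arrays and 232 to 326 at 1 h, and that of the macrophage markers 927 to 1612 and 1136 to 1493. These ranges overlapped, and the part of cell composition in the called genes was not tested.

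The first-hour values were also set against those of later livers, without the control arrays. Against 1 h, limma called 254 genes at 6 h (4.25%), 1589 at 12 h (26.6%) and 305 at 16 d (5.1%), the last comparison being added after the data were seen. These comparisons share the 1 h arrays with each other and with the set of called genes, so no count of directions is read from them. Of the 38 genes 9 differed at 6 h (n = 4 arrays), 15 at 12 h and 13 at 16 d (n = 5 each). Jun and Ier2 were higher again at 6 h than at 1 h, by 1.36 ± 0.38 (SE, adjusted p = 0.0292) and 1.30 ± 0.32 (SE, adjusted p = 0.00974). Egr1, Fos and Junb had differences of 0.97 ± 0.59 (SE, adjusted p = 0.446), 1.22 ± 0.61 (SE, adjusted p = 0.319) and 1.33 ± 0.45 (SE, adjusted p = 0.0846), which did not pass.

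For Hexim1 the difference of 6 h minus 1 h was −1.18 ± 0.18 (SE, adjusted p = 1.63e-05) and that of 12 h minus 1 h −1.56 ± 0.17 (SE, adjusted p = 2.13e-09), and its mean of 7.92 at 1 h was the highest of the 10 groups, the others lying between 6.16 and 6.96. Id3 was higher at 6 h than at 1 h by 2.79 ± 0.34 (SE, adjusted p = 2.8e-07), and Id2 by 0.96 ± 0.22 (SE, adjusted p = 0.00473). The Id3 mean went from 9.60 in control to 7.64 at 1 h and 10.43 at 6 h, and was again low, at 7.87 to 8.09, from 4 d to 16 d. Phlda1 was likewise higher at 6 h than at 1 h, by 2.64 ± 0.44 (SE, adjusted p = 5.95e-05), with a 6 h mean of 11.32 against 11.49 in control. Gjb2, Ppfibp2 and Hamp were also higher at 6 h than at 1 h, by 0.69 ± 0.13 (SE, adjusted p = 0.000385), 1.07 ± 0.17 (SE, adjusted p = 2.92e-05) and 0.61 ± 0.18 (SE, adjusted p = 0.0384). For G6pc 12 h minus 1 h was −2.34 ± 0.42 (SE, adjusted p = 2.94e-05), with a mean of 8.89 against 8.91 in control. All these genes were chosen for their 1 h values and the same 1 h arrays enter here. A direction opposite to the 1 h difference is therefore favoured by the choice.

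**Figure D4:**
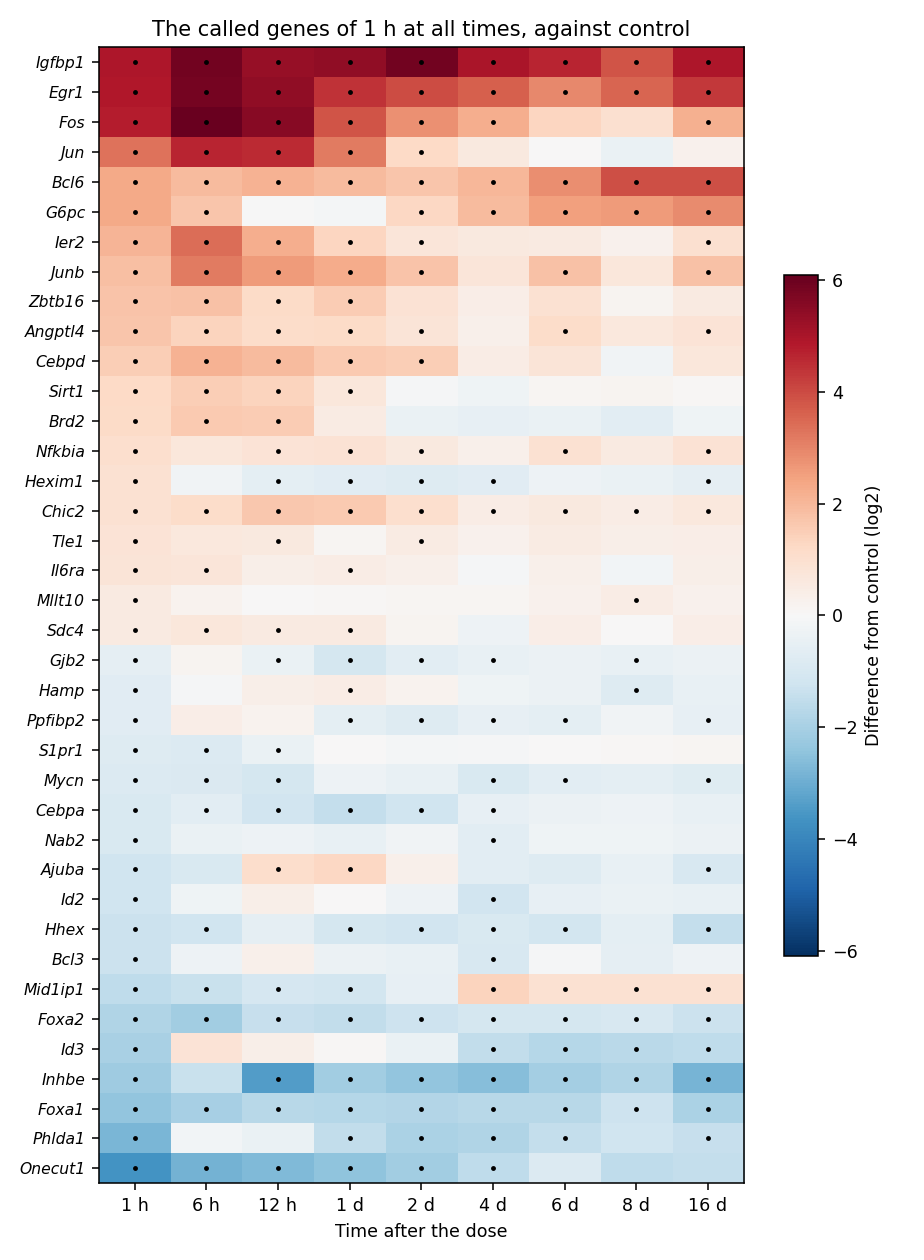
Difference from control (log2, colour) at each of the 9 times (columns) for the 38 genes called at 1 h (rows), with a dot where the adjusted p is under 0.05. All columns share the control arrays. Igfbp1, Egr1, Bcl6, Chic2, Foxa1 and Foxa2 are called in all 9 columns, and Hexim1 is red at 1 h and blue at the other times.

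Several of the genes with large differences at 1 h also differed from control 16 d after the dose, in a comparison that shares the same 5 control arrays. Igfbp1 differed from control by 4.94 at 1 h and by 4.91 at 16 d. Its control arrays reached 8.33 at most, and the lowest of the 44 arrays of all treated groups read 9.50. Egr1 differed from control by 4.88 and 4.32, Foxa1 by −2.39 and −1.95, Bcl6 by 2.33 and 3.93, and G6pc by 2.32 and 2.90 at 1 h and 16 d. Set directly against each other, 16 d minus 1 h was −0.03 ± 0.49 (SE, adjusted p = 0.996) for Igfbp1, −0.56 ± 0.56 (SE, adjusted p = 0.788) for Egr1, 0.44 ± 0.24 (SE, adjusted p = 0.434) for Foxa1, 1.59 ± 0.55 (SE, adjusted p = 0.0894) for Bcl6 and 0.57 ± 0.42 (SE, adjusted p = 0.634) for G6pc. None of these 5 passed, which does not show that the levels were alike. Unlike for Igfbp1, single arrays of the treated groups reached the control range for the other 4. The lowest treated array of Egr1 read 7.19 against a highest control array of 7.53, that of Bcl6 4.75 against 5.43 and that of G6pc 6.88 against 9.48, and the highest treated array of Foxa1 read 9.07 against a lowest control array of 8.82. The mean of G6pc was 8.89 at 12 h and 8.81 at 1 d, against 8.91 in control.

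Other called genes differed between 1 h and 16 d. They were chosen for their 1 h values and the same 1 h arrays enter here, so the values are given as a description and their direction is favoured by the choice. The difference of 16 d minus 1 h was −3.03 ± 0.36 (SE, adjusted p = 7.54e-08) for Jun, −2.63 ± 0.58 (SE, adjusted p = 0.00222) for Fos and −1.10 ± 0.30 (SE, adjusted p = 0.0199) for Ier2. The chromatin and elongation genes Brd2, Hexim1 and Sirt1 gave −1.44 ± 0.22 (SE, adjusted p = 1.66e-05), −1.48 ± 0.17 (SE, adjusted p = 4.44e-08) and −1.16 ± 0.23 (SE, adjusted p = 0.000627). Angptl4 and Zbtb16 gave −0.86 ± 0.26 (SE, adjusted p = 0.0419) and −1.20 ± 0.36 (SE, adjusted p = 0.0375). Among the falls, Onecut1, Phlda1, Id2, S1pr1 and Mid1ip1 were higher at 16 d than at 1 h, by 2.17 ± 0.54 (SE, adjusted p = 0.00891), 1.38 ± 0.41 (SE, adjusted p = 0.0368), 0.75 ± 0.21 (SE, adjusted p = 0.0218), 0.89 ± 0.15 (SE, adjusted p = 5.88e-05) and 2.53 ± 0.30 (SE, adjusted p = 8.44e-08). Mid1ip1 lay above its control level from 4 d on, with a mean of 9.36 at 16 d against 8.41 in control. The remaining 25 genes did not pass this test, which does not show that their levels were alike at 1 h and 16 d.

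**Figure D5:**
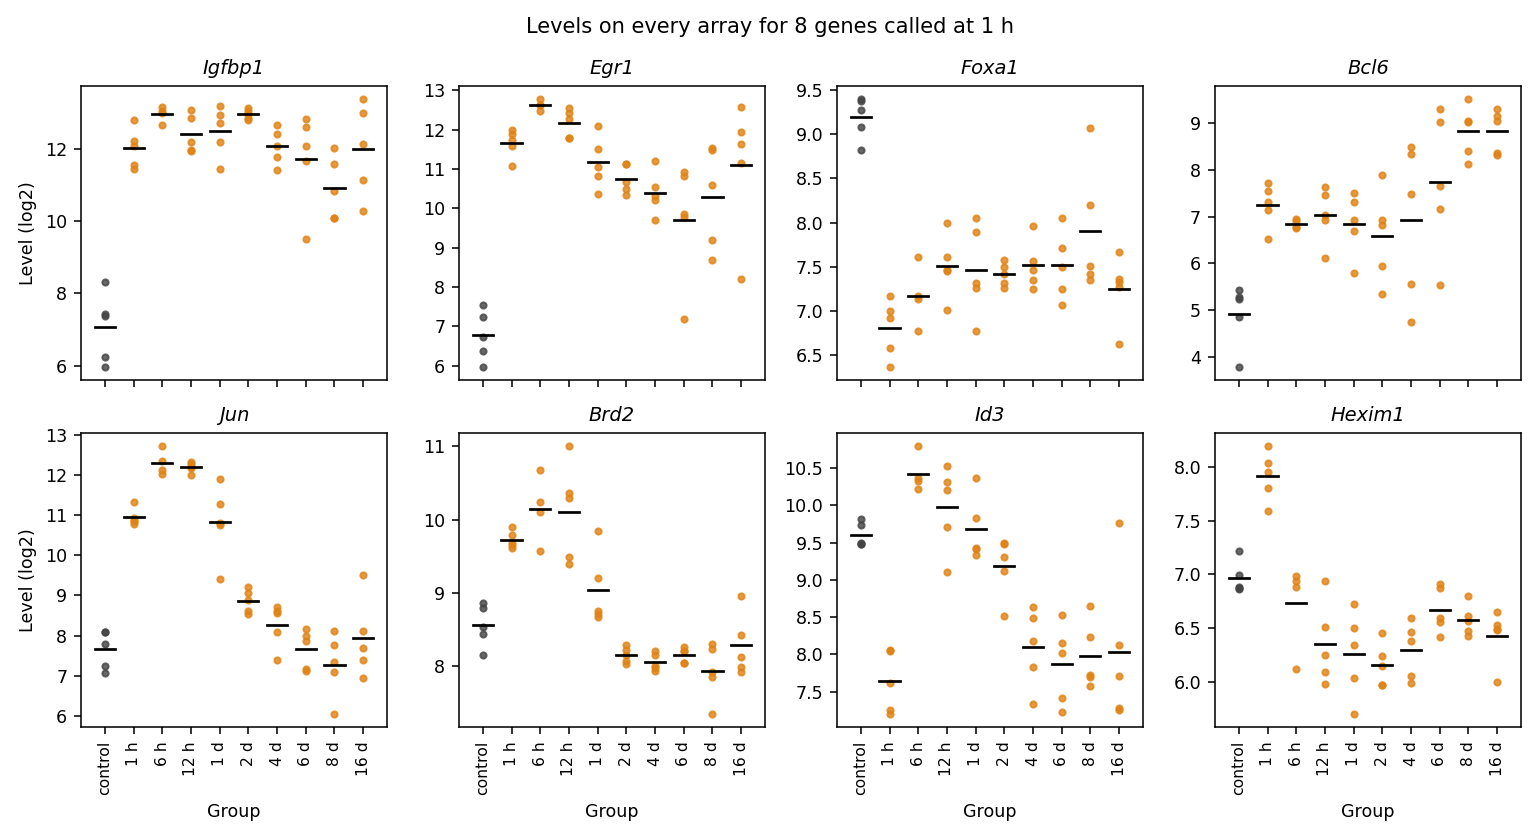
Log2 level on every array (y axis) in the control group (grey) and the 9 times after APAP (orange) for 8 genes called at 1 h, with black bars at group means. Igfbp1, Egr1, Foxa1 and Bcl6 have means away from the control mean at all 9 times, Jun and Brd2 return, and Id3 and Hexim1 have crossed the control mean by 6 h.

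At the edge of the threshold, Hhex (adjusted p = 0.0498), Hamp and Nab2 (0.0404 each) lay just inside and Ccng2 (0.0532), Errfi1 (0.0562) and Cxcl11 (0.0629) just outside. Arrays did not overlap for 56 genes that were not called. Zfand5, Ints6 and Trim13, 3 of those with the smallest p, differed by 0.83 ± 0.22, −0.68 ± 0.18 and −0.66 ± 0.18 (SE), at adjusted p = 0.0629, 0.0658 and 0.0746, and were picked here after their values were seen. Across 23 alternatives, 22 of the 38 called genes kept their call in every fit that included them, 16 lost it in at least 1, and 0 changed sign. The alternative without probe sets named _x_at or _s_at did not include Angptl4, Chic2 and Zbtb16, whose only measured probe sets had such names.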

How the data were processed

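The authors deposited 1 table of log2 expression values per probe set and array, made from Affymetrix Mouse Genome 430 2.0 arrays with the oligo package (1.52.0) and RMA (background correction, quantile normalization and summary of probes), per the submitters' processing notes. The sources used here do not say whether all arrays were normalized together. The table used here holds all 45101 probe sets on 25 arrays and part of them on 24, controls included. Probe sets were kept if every one of the 49 arrays had a value (8137). Of these 7370 had 1 gene symbol in the platform annotation, 223 several and 544 were not listed, and each gene was represented by its brightest probe set, by mean over the 49 arrays (5976 genes, 5970 of them named through the RefSeq table of GRCm38.p6).

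For each contrast, limma 3.58.1 (lmFit, contrasts.fit and eBayes, under R 4.3.3) fitted a model with 1 mean for each of the 10 groups over 49 arrays (39 residual degrees of freedom), without the replicate numbers. p-values were adjusted by Benjamini-Hochberg over all genes, and adjusted p under 0.05 was called. The code was tested on simulated data. The members, the 39 gene lists and the alternatives were chosen with earlier results of these data known. Named are all called genes and up to 4 members per list (called first, then smallest p), and Cyp2e1. Promoter windows came from RefSeq (GRCm38.p6), with 31 of the 38 called genes matched by symbol. No 2 of the 10 arrays were identical. An array has no sequencing depth, so the number of arrays limits the precision.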

Additional observations from a re-analysis of the deposited data

Results flagged for a closer look

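In 2 of 76 groups of 5 arrays checked for the 38 called genes, 1 array lay far from the other 4. Jun read 11.34 on 1 h replicate 4, and Junb read 5.44 on control replicate 3. Chance gives such a gap in about 1 of 20 groups.

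Called genes whose level at a later time differed from that at 1 h in limma's test are given as the later time minus 1 h, on the log2 scale. These comparisons share the 1 h arrays. At 6 h the differences were 1.36 for Jun, 1.30 for Ier2, 2.64 for Phlda1, 2.79 for Id3, 0.96 for Id2, −1.18 for Hexim1, 0.69 for Gjb2, 1.07 for Ppfibp2 and 0.61 for Hamp. At 12 h they were 0.70 for Foxa1, 1.24 for Jun, 2.41 for Phlda1, 0.74 for Chic2, 2.33 for Id3, 1.59 for Id2 and −2.34 for G6pc. The 12 h differences of Hexim1, S1pr1, Ppfibp2 and Mllt10 were −1.56, 0.38, 0.89 and −0.54, and those of Ajuba, Bcl3, Nab2 and Hamp were 2.29, 1.62, 0.62 and 1.05. At 16 d the immediate early genes Jun, Fos and Ier2 gave −3.03, −2.63 and −1.10. The other rises gave −0.86 (Angptl4), −1.48 (Hexim1), −1.16 (Sirt1), −1.44 (Brd2) and −1.20 (Zbtb16) at 16 d. The falls Phlda1, Onecut1, Id2, S1pr1 and Mid1ip1 gave 1.38, 2.17, 0.75, 0.89 and 2.53.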

How the results depend on the processing

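The 1 h call count of 38 (20 higher, 18 lower) was 131 (54 and 77) with array weights, and 29 genes were lower with quantile normalization and, in an alternative chosen after seeing the data, with all 3 narrow arrays of the series left out. Leaving out 1 array gave 26 to 79 called genes, and 9 to 56 lower, the highest of both without control replicate 3. The cause was not tested. Same-numbered arrays of both groups had deviations that correlated at 0.07 to 0.82, and 2 of 5 arrays of 1 h correlated best with their own number, so the numbers were not taken as pairs. A fit with the replicate block gave 106 calls (48 higher, 58 lower) and kept all 38. Among genes given above as not called, it called Btg2, Per2, Bhlhe40, Bag3, Nfkbiz, Tsc22d3, Cebpb, Ccng2 and Cyp2b10. Their adjusted p ran from 0.00016 (Btg2) to 0.0418 (Cyp2b10), with 0.00545 for Per2 and 0.00514 for Bhlhe40. Txnip, Socs2, Igfals and Rrs1 passed there too (adjusted p = 0.00912, 0.0148, 0.00667 and 0.00196). In lists given above without a call, the block fit also called Il1a, Rsad2, Irf7 and the conjugation enzyme Sult1d1 (adjusted p = 0.0235, 0.0373, 0.0427 and 0.0282). Only up to 4 members per list were followed in the alternatives. Ccl17, of the cytokine list, passed with array weights and without control replicate 3 (adjusted p = 0.00649 and 0.00701). It also passed without both narrow arrays and without all 3 (adjusted p = 0.0428 and 0.022). Il1a and, of the replication list, Pcna passed with array weights (adjusted p = 0.0385 and 0.0271). With array weights Maff and Cebpb passed (adjusted p = 0.0271 and 0.00891), and Cebpb also in the fit of the 10 arrays alone (adjusted p = 0.0411). Array weights also called Txnip, Igfals and Rrs1 (adjusted p = 0.0261, 0.0275 and 0.0106). Quantile normalization called Txnip and Rrs1 (adjusted p = 0.0296 and 0.0443), and Rrs1 passed without control replicate 3 (adjusted p = 0.0243). The count at 6 h against 1 h (254) was 817 with array weights, 416 with quantile normalization and 136 to 253 with 1 array left out, the lowest without 6 h replicate 5. At 12 h (1589) it was 2546 with ribosomal protein centring. At 16 d (305) it was 917 with array weights, 488 with quantile normalization and 115 with the replicate block. No called gene of the 38 changed sign under any of the 23 alternatives. Signals near the low or high end of the range, as for Mycn, Onecut1 at 1 h and Cyp2e1, can understate differences.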
